A study of Mus musculus with 12 samples.

Results

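The 9 genes described here are transcription factors that give regions of the developing forebrain their identity: Lhx2, Emx1, Emx2, Nr2f1, Otx1, Otx2, Dlx2, Zic1 and Irx2. They were chosen by gene symbol, and all 9 were found, once each, among the 56941 genes of the deposited table. RNA had been sequenced from astrocytes of the adult mouse hippocampus, sorted with an antibody to the surface antigen ACSA-2, from naive males. Animals labelled Ctrl carried Tnfrsf1b alleles flanked by loxP sites (Tnfrsf1b fl/fl). Animals labelled cKO carried the same alleles and a Cre recombinase fused to a modified oestrogen receptor under the Gfap promoter (Gfap-creERT2). Tnfrsf1b encodes the TNF receptor TNFR2. How recombination was induced is not given in the sources used here, and the Gfap promoter is also active in neural stem cells. Each genotype was represented by 3 A numbers, A1, A2 and A8 for Ctrl and A4, A9 and A10 for cKO, with an S1 and an S2 library each. The labels define neither A nor S, so p-values measure the spread between A numbers, which may be partly technical. The mean of S1 and S2 was used, so n is 3 A numbers per genotype.

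In the embryo, signals from the edges of the neural tube set up domains of homeobox and zinc finger factors along its length. Lhx2, Emx1 and Emx2 mark the dorsal telencephalon, from which cortex and hippocampus form. Dlx2 acts in the ventral telencephalon and its interneurons, Otx factors in forebrain and midbrain, Zic factors in the roof and midline, and Irx factors mostly behind the telencephalon, where Hox genes pattern the hindbrain and cord. Adult astrocytes are known to retain part of the code of the region they arose in.

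Levels are given in FPKM, counts scaled by gene length and library size, so genes can be compared with each other. Recovered depth was 17311895 to 35323322 reads per library, and the 3 reads used as the limit of a count of 0 covered counting error only. Of whole counts from 1 to 20, 72.6% to 80.4% per library were even. Reads thus came mostly in pairs, and a limit of 3 reads is too low for a count of 0. All 16 astrocyte markers examined were expressed, with a summed level of 4561 to 6215 FPKM per A number. Slc1a2, the main glutamate transporter, was at 1588 ± 83.7 FPKM (Ctrl) and 1786 ± 198 FPKM (cKO), as mean ± SD over 3 A numbers each, the form used for all such pairs below. Atp1b2, which encodes the ACSA-2 antigen, was at 665 ± 97.4 FPKM (Ctrl) and 748 ± 83.1 FPKM (cKO). Summed markers per A number were 14.2 to 36.5 FPKM for 8 microglial genes, 6.53 to 79.5 FPKM for 8 endothelial genes, 69.7 to 146 FPKM for 9 mural genes and 56.0 to 138 FPKM for 7 oligodendrocyte precursor genes. Olig1 made up most of the precursor sum, and Pdgfra averaged 0.690 FPKM. The sums of 12 oligodendrocyte genes, 313 to 2354 FPKM, and 12 ependymal genes, 72.6 to 343 FPKM, reached higher. Those of 11 choroid plexus genes other than Otx2 ran from 4.66 to 472 FPKM. Tnfrsf1b had 4 reads in 1 Ctrl library and 10 and 22 reads in the A4 libraries, labelled cKO, and 0 in the other 9. Its values therefore do not check the genotype. A4, which had the most reads of it, also had the highest microglial sum, 36.5 FPKM. The source of these reads was not tested. Groups are named here as the libraries labelled Ctrl and cKO.

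Lhx2, Nr2f1 and Emx2 were the highest of the 9 genes, and each had at least 1092.5 reads in every library. Otx1 and Zic1 followed at intermediate levels and Otx2 at a low one. Emx1, Irx2 and Dlx2 averaged under 1 FPKM. Thus 6 of the 9 genes passed the filter of a mean FPKM of at least 1 and were tested, and 3 did not. The level over the 6 A numbers was 36.4 ± 3.58 FPKM for Lhx2, 33.1 ± 4.21 for Nr2f1, 24.3 ± 3.98 for Emx2, 6.94 ± 0.849 for Otx1 and 5.89 ± 2.34 for Zic1. It was 1.85 ± 1.14 FPKM for Otx2, 0.484 ± 0.292 for Emx1, 0.470 ± 0.426 for Irx2 and 0.224 ± 0.251 for Dlx2 (SD, n = 6). Among protein-coding genes that were tested, Lhx2 stood above 95%, Nr2f1 above 94.3% and Emx2 above 90.9%, against 57.7% for Otx1, 51.4% for Zic1 and 11.9% for Otx2.

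Some neighbours in this order were not separated by their spread. Lhx2 exceeded Nr2f1 in 5 of 6 A numbers, by 3.30 ± 3.22 FPKM (SD of the difference). Otx1 exceeded Zic1 in 4 of 6, by 1.05 ± 2.44 FPKM, and Emx1, Irx2 and Dlx2 could not be ranked: Emx1 was above Irx2 in 3 of 6 and Irx2 above Dlx2 in 4 of 6. The steps from Emx2 to Otx1, 3.50-fold, and from Zic1 to Otx2, 3.19-fold, held in 6 of 6 A numbers with ranges that did not overlap. Variation between A numbers was lowest in Lhx2 (coefficient of variation 9.82%), Otx1 (12.2%), Nr2f1 (12.7%) and Emx2 (16.4%). It was 39.6% in Zic1, 60.2% in Emx1, 61.6% in Otx2, 90.7% in Irx2 and 112% in Dlx2, so the 4 steadiest genes were 4 of the 5 highest.

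**Figure D1:**
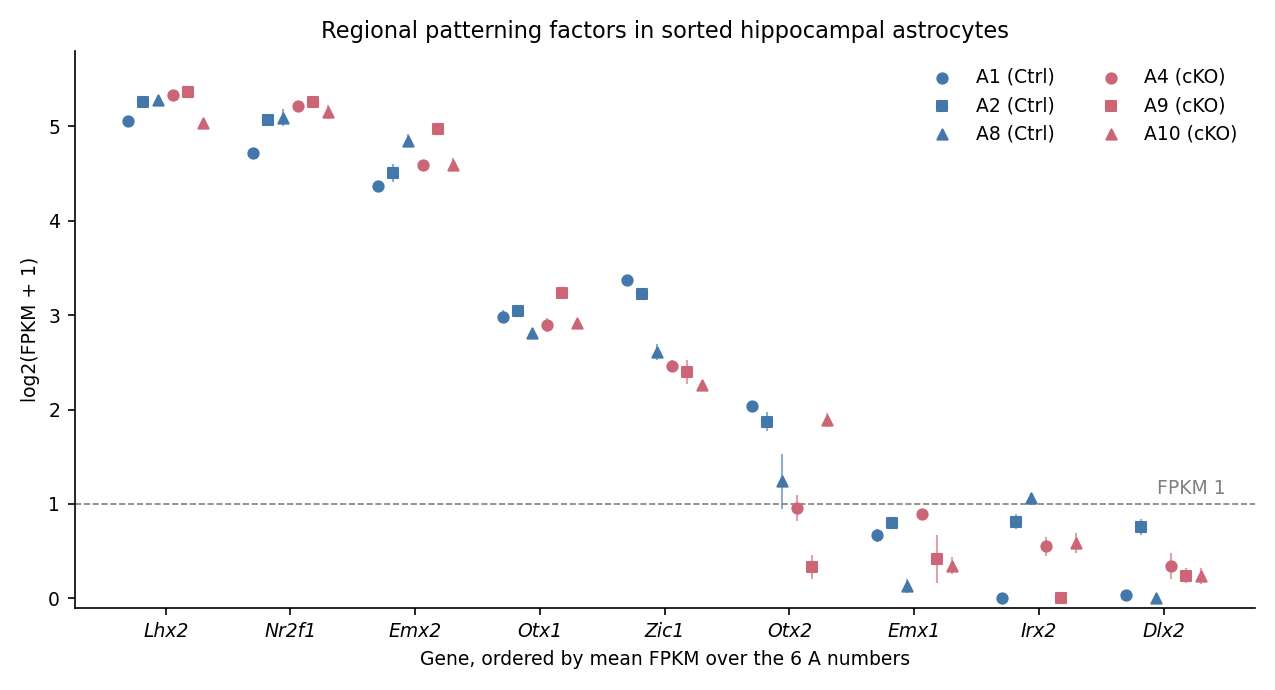
Level of each gene as log2(FPKM + 1) in each of the 6 A numbers (points, mean of S1 and S2 on the log scale; thin lines join S1 and S2). Blue is Ctrl and red is cKO, and the dashed line marks an FPKM of 1. Lhx2, Nr2f1 and Emx2 sit highest with little spread, Zic1 is higher in A1 and A2 than in the other 4 A numbers, and Emx1, Irx2 and Dlx2 average below the line.

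Lhx2, a LIM homeobox factor that specifies cortical and hippocampal identity, lies on chromosome 2 (ENSMUSG00000000247, start 38229293, end 38259745, plus strand; all gene coordinates are those of the deposited table, whose build is unsettled). It measured 32.2, 37.2 and 37.7 FPKM in Ctrl A1, A2 and A8 and 39.4, 40.2 and 31.8 FPKM in cKO A4, A9 and A10. A1 and A10 were the low values, 1 from each genotype, and the groups overlapped. Log2 fold changes here are differences of log2(FPKM + 1), which understate the change of genes at low levels. That of Lhx2 in cKO against Ctrl was 0.05 (SE 0.14, 95% interval -0.27 to 0.37, limma adjusted p = 0.970, exact permutation p = 0.6, two-sided, n = 3 each). Its direction turned when A1 or A9 was left out (-0.020 and -0.0087). S2 was 0.948 to 0.991 times S1 in each A number, the closest agreement of the 9 genes.

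Emx2 (ENSMUSG00000043969, chromosome 19, start 59446804, end 59453789, plus strand), required for growth of the hippocampus and dentate gyrus, measured 19.7, 21.8 and 27.8 FPKM in A1, A2 and A8. In A4, A9 and A10 it measured 23.0, 30.3 and 23.1 FPKM. The highest values were A9 of cKO and A8 of Ctrl, and the groups overlapped. The log2 fold change was 0.14 (SE 0.18, 95% interval -0.28 to 0.56, limma adjusted p = 0.923; exact permutation p = 0.5, two-sided, n = 3 each). It was 0.015 without A9, 0.038 without A1 and 0.28 without A8.

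Its paralog Emx1 (ENSMUSG00000033726, chromosome 6, start 85164420, end 85181444, plus strand), whose promoter is widely used to mark dorsal telencephalic progenitors and excitatory neurons, was far lower. It measured 0.588, 0.735 and 0.0960 FPKM in A1, A2 and A8 and 0.859, 0.354 and 0.275 FPKM in A4, A9 and A10. Reads ran from 2 in A8 S1 to 70 in A4 S2, with 1 library at or under 3 reads, and the groups overlapped (exact permutation p = 1, two-sided, n = 3 each). Emx2 exceeded Emx1 26.8-fold to 290-fold across the 6 A numbers, and 50.1-fold by their means. Excitatory neuron markers, 11 genes, summed to 14.0 to 19.5 FPKM in Ctrl and 9.52 to 10.5 FPKM in cKO, and 3 of them passed the filter; their part in the Emx1 value was not tested.

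The windows of 250 bases before the start of Lhx2, Emx2, Emx1 and Dlx2 are shown because they pair genes of the higher levels with genes that averaged under 1 FPKM. They come from RefSeq on GRCm38.p6, a build with other coordinates than those of the deposited table, and read 5′ to 3′ on the gene's strand with CG dinucleotides in capitals.
Lhx2, chr2:38339031-38339280, plus strand: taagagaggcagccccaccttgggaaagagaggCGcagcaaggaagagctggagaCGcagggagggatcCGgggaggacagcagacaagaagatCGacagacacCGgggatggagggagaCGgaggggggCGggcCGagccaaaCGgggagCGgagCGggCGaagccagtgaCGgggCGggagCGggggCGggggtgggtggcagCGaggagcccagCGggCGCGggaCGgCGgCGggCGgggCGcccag
Emx2, chr19:59458440-59458689, plus strand: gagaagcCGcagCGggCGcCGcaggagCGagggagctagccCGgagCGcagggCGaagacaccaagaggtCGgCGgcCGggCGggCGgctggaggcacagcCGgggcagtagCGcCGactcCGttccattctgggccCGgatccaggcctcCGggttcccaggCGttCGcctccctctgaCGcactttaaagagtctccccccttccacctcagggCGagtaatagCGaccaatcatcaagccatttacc
Emx1, chr6:85187681-85187930, plus strand: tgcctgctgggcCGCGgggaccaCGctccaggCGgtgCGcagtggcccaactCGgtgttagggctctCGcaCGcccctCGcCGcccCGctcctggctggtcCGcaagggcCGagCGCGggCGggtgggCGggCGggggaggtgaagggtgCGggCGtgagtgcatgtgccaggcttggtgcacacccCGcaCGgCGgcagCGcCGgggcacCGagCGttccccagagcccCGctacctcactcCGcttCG
Dlx2, chr2:71546755-71547004, minus strand: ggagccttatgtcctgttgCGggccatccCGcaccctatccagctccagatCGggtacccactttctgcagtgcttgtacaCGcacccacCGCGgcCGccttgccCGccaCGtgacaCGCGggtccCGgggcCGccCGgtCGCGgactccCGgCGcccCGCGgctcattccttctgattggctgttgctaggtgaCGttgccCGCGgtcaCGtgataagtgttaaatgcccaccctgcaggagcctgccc

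The counts of CG were 25 in Lhx2, 24 in Emx2, 30 in Emx1 and 24 in Dlx2, against a median of 6 over 32841 such windows of all genes. Windows were found for 8 of the 9 genes, 13 windows in all. Zic1 had 27 CG and Irx2 had 19, whereas the 4 windows of Otx2 had 6 to 14. The 2 windows of Nr2f1 had 22 and 2, and the other window of Lhx2 had 24. The CG count therefore did not follow the level: Emx1 had the most, at a level under 1 FPKM. TAATTA, the core letters bound by many homeodomains, which read the same on both strands, occurred in 2 of the 13 windows, both of Otx2, and in 4.84% of all windows.

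Nr2f1 (COUP-TF1; ENSMUSG00000069171, chromosome 13, start 78337092, end 78347876, minus strand) is a nuclear receptor that grades areas along the cortex and takes part in hippocampal development. It measured 25.3, 32.6 and 33.2 FPKM in A1, A2 and A8 and 36.0, 37.2 and 34.5 FPKM in A4, A9 and A10. All 3 cKO values lay above all 3 Ctrl values, with A8 and A10 close together and A1 lowest. The libraries overlapped. The log2 fold change was 0.25 (SE 0.14, 95% interval -0.08 to 0.57, limma adjusted p = 0.765; exact permutation p = 0.1, two-sided, the smallest that 3 against 3 allows). The fold change was 0.12 without A1. Its relative Nr2f2 was at 7.27 ± 0.140 FPKM (Ctrl) and 7.53 ± 1.16 FPKM (cKO), and Nr2f1 exceeded it 3.55-fold to 5.63-fold.

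Otx1 (ENSMUSG00000005917, chromosome 11, start 21944764, end 21952897, minus strand) and Otx2 (ENSMUSG00000021848, chromosome 14, start 48895134, end 48911276, minus strand) are paired-type homeobox factors of forebrain and midbrain. In the adult, Otx1 is known from cortical neurons and Otx2 from the choroid plexus, the epithelium that makes cerebrospinal fluid. Otx1 measured 6.92, 7.25 and 6.01 FPKM in A1, A2 and A8 and 6.45, 8.44 and 6.57 FPKM in A4, A9 and A10. A9 was the highest and A8 the lowest. The groups overlapped, and the log2 fold change was 0.07 (SE 0.16, 95% interval -0.32 to 0.46, limma adjusted p = 0.967), which became -0.038 without A9.

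Otx2 divided the A numbers differently. It measured 3.10, 2.67 and 1.40 FPKM in A1, A2 and A8 and 0.948, 0.266 and 2.71 FPKM in A4, A9 and A10. A1, A2 and A10 were high and A9 was lowest, at 12 and 44 reads, so the groups overlapped. The log2 fold change was -0.65 (SE 0.46, 95% interval -1.74 to 0.43, limma adjusted p = 0.841; exact permutation p = 0.3, two-sided, n = 3 each). It was -0.29 without A9 and -1.07 without A10. In A8, S1 gave 0.943 FPKM and S2 gave 1.87 FPKM.

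Of the choroid plexus markers, Ttr was high where Otx2 was high. The 11 other genes of that list summed to 77.4 and 78.6 FPKM in A1 and A2 and 472 FPKM in A10, but to 14.8 in A8, 14.2 in A4 and 4.66 in A9. Of them, 6 passed the filter and none was at 0 in every library. Ttr, the transthyretin gene that defines this epithelium, measured 58.4, 64.5 and 5.65 FPKM in A1, A2 and A8 and 2.06, 0.259 and 433 FPKM in A4, A9 and A10. The 3 A numbers with the highest Otx2 were the 3 with the highest Ttr, which made up most of the sum in these 3. Without Ttr the other 10 genes summed to 18.9, 14.1 and 9.16 FPKM in A1, A2 and A8 and 12.2, 4.40 and 38.6 FPKM in A4, A9 and A10. Kcnj13, a potassium channel of this epithelium named after its values were seen, went another way, at 0.210 FPKM in A2 but 3.55 FPKM in A8 and 2.49 FPKM in A9. Their part in the Otx2 values was not tested. In bulk libraries such as these, fewer cells of a type and less RNA per cell cannot be told apart.

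Dlx2 (ENSMUSG00000023391, chromosome 2, start 71373752, end 71377098, minus strand), a homeobox factor of the ventral telencephalon, had the lowest mean of the 9, within the spread of Irx2. It measured 0.0225, 0.690 and 0 FPKM in A1, A2 and A8 and 0.270, 0.183 and 0.179 FPKM in A4, A9 and A10. A2 was the highest, at 30 and 62 reads. Both A8 libraries and A1 S1 had 0 reads, where 3 reads would be 0.0334, 0.0536 and 0.0552 FPKM in A8 S2, A8 S1 and A1 S1. The groups overlapped (exact permutation p = 1, two-sided, n = 3 each). Inhibitory neuron markers, 10 genes, also summed highest in A2, at 30.3 FPKM, and lowest in A8, at 6.12 FPKM. A1, where Dlx2 had 0 and 4 reads, had the next highest sum, at 17.0 FPKM. Without Npy, the highest of these genes, the sum was still highest in A2, at 10.7 FPKM, but lowest in A9, at 4.68 FPKM. Of the 10 genes, 3 passed the filter, and Vip was at 0 in every library. Their part in the Dlx2 values was not tested.

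Irx2 (ENSMUSG00000001504, chromosome 13, start 72776939, end 72782317, plus strand), an Iroquois homeobox factor, was listed at 0 in both libraries of A1 and of A9. It measured 0.759 and 1.09 FPKM in A2 and A8 of Ctrl and 0.466 and 0.507 FPKM in A4 and A10 of cKO, from 24 to 106 reads. Each genotype thus held 1 A number without a read, where 3 reads would be 0.0293 to 0.0524 FPKM. The groups overlapped (exact permutation p = 0.5, two-sided, n = 3 each). Irx1, its neighbour in the same gene cluster, named after its values were seen, was also at 0 in A1 and A9 and measured 0.611, 1.70, 0.865 and 0.784 FPKM in A2, A8, A4 and A10.

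Zic1 (ENSMUSG00000032368, chromosome 9, start 91240111, end 91247863, minus strand), a zinc finger factor of the neural roof, septum and meninges, showed the lowest p of the tested members. It measured 9.33, 8.34 and 5.10 FPKM in A1, A2 and A8 and 4.52, 4.30 and 3.78 FPKM in A4, A9 and A10. All 6 cKO libraries, at most 4.73 FPKM, lay below all 6 Ctrl libraries, at least 4.78 FPKM, by a narrow margin to A8. The means were 7.59 ± 2.21 FPKM (Ctrl) and 4.20 ± 0.383 FPKM (cKO). The log2 fold change was -0.69 (SE 0.23, 95% interval -1.24 to -0.15), with an unadjusted p of 0.0202 (4.71% of all genes were lower in cKO with an unadjusted p under 0.05) and a limma adjusted p of 0.537, so the gene did not pass the threshold. The exact permutation p was 0.1, two-sided, the smallest this design allows. With A8 as the only Ctrl A number, its spread taken to be that of the cKO group, the fold change was -0.23.

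Markers of other cells followed Zic1 only in part. The Cajal-Retzius and neuroblast list, 12 genes of early-born hippocampal neurons and new granule cells, summed to 69.3, 53.1 and 16.6 FPKM in A1, A2 and A8 and to 12.9 to 19.6 FPKM in cKO. Of its genes, 6 passed the filter, and Lhx5, one of its defining genes, was at 0 in A8 and in every cKO library. Without Prox1, which had the highest mean, the other 11 genes summed to 54.8, 40.7 and 6.70 FPKM in A1, A2 and A8. In A4, A9 and A10 they summed to 9.48, 7.96 and 9.88 FPKM, so A8 was the lowest. The oligodendrocyte list, 12 of 12 genes measured, summed to 1096 to 2354 FPKM in Ctrl and 313 to 753 FPKM in cKO. The ependymal list, 12 of 12 measured, summed to 81.2 to 343 FPKM in Ctrl and 72.6 to 219 FPKM in cKO. In A8 both this sum, 81.2 FPKM, and the Cajal-Retzius sum lay within the range of cKO. The oligodendrocyte sums, like Zic1, did not overlap between genotypes. Meningeal and vascular fibroblast markers other than Zic1 summed to 116 to 191 FPKM in Ctrl and 42.0 to 107 FPKM in cKO, and 5 of 12 passed the filter. That separation came from Ptgds, which oligodendrocytes also express. Without it the other 11 genes summed to 13.9, 11.2 and 11.7 FPKM in A1, A2 and A8 and 9.39, 9.99 and 24.1 FPKM in A4, A9 and A10, so the groups overlapped with A10 highest. Their part in the Zic1 difference was not tested.

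**Figure D2:**
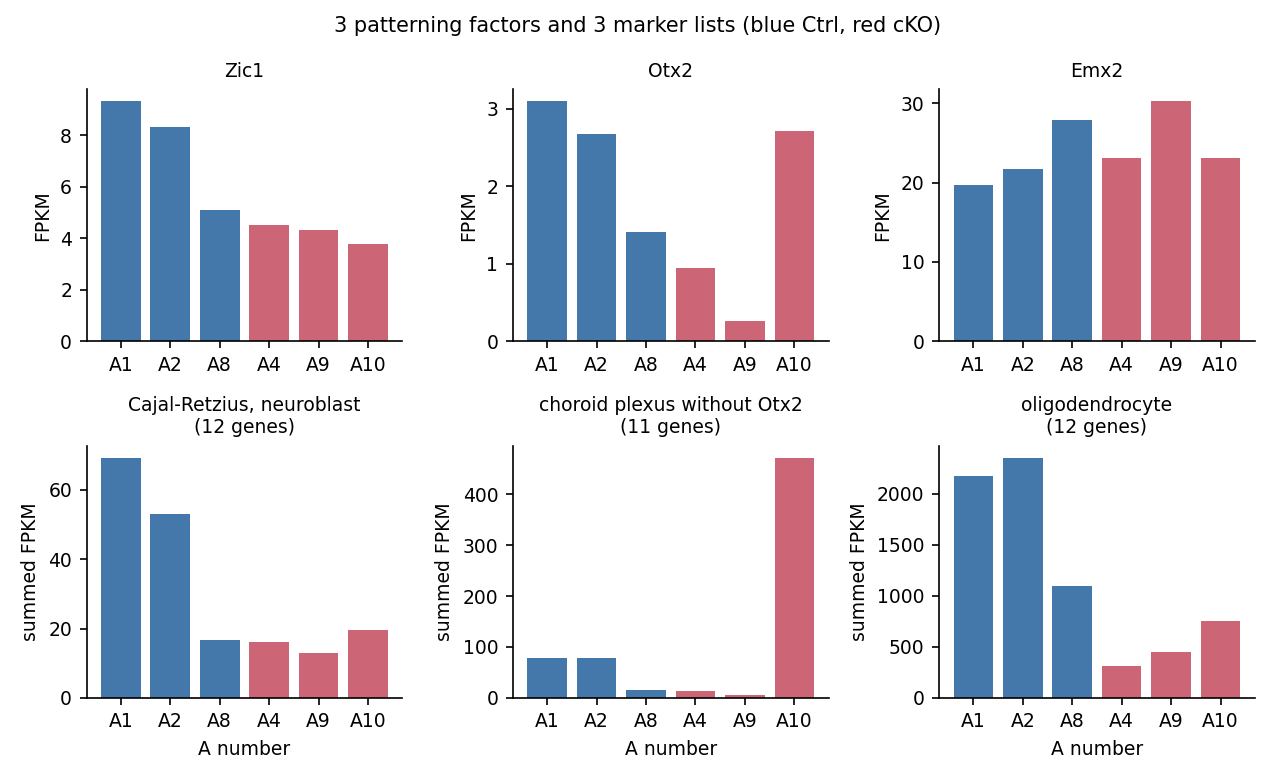
Level of Zic1, Otx2 and Emx2 in FPKM (upper row) and summed FPKM of 3 marker lists (lower row) in each A number; bars start at 0, blue is Ctrl and red is cKO. Otx2 and the choroid plexus sum, most of it Ttr in these 3 A numbers, are both high in A1, A2 and A10, and Zic1 and the Cajal-Retzius sum are both highest in A1 and A2, whereas Emx2 is 19.7 FPKM in A1, its lowest value.

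Other Zic genes did not share one pattern. Zic2 was at 21.6 ± 3.07 FPKM (Ctrl) and 20.7 ± 0.971 FPKM (cKO), and Zic5 at 6.22 ± 1.39 FPKM (Ctrl) and 6.33 ± 0.857 FPKM (cKO), and both overlapped between genotypes. Zic2 exceeded Zic1 2.22-fold and 2.29-fold in A1 and A2 and 4.36-fold to 5.74-fold in the other 4 A numbers. Zic4, whose span overlaps that of Zic1 on the opposite strand over 3398 bases, was at 1.52 ± 0.283 FPKM (Ctrl) and 0.481 ± 0.102 FPKM (cKO). Its groups did not overlap either. Its mean of 0.999 FPKM fell just under the filter. With a looser filter of 0.1 FPKM the difference of log2(FPKM + 1) came to -0.76 (SE 0.26, limma adjusted p = 0.684), which understates the change at this level. The strand setting of the read counting is not given in the sources used here, so reads of Zic1 and Zic4 may be shared.

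Opposite-strand genes also overlapped Lhx2, Emx2, Nr2f1 and Otx2. The long noncoding RNA Emx2os overlapped Emx2 over 264 bases and averaged 7.25 FPKM over the 12 libraries, and A830082K12Rik overlapped Nr2f1 over 1741 bases and averaged 8.26 FPKM. Recovered reads were whole in 12 of 12 libraries for Emx1, Otx1, Otx2, Dlx2 and Irx2 and in 11 for Lhx2. They were whole in 7 libraries for Emx2, 7 for Zic1 and 3 for Nr2f1, so the values of these 3 genes include reads divided among genes. Neither antisense RNA passed the threshold between genotypes (limma adjusted p = 0.854 for Emx2os and 0.877 for A830082K12Rik).

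Across all genes, 0 of 17586 tested had a limma adjusted p under 0.05 (0%), 1352 had an unadjusted p under 0.05, and 0 of the 6 tested members did. At an unadjusted p under 0.05 there was 1 of the 6 members, Zic1, against 7.69% of all genes (4.71% lower and 2.97% higher in cKO). The 3 cKO values lay on one side of the 3 Ctrl values in 2 of the 6 members, Nr2f1 above and Zic1 below, against 13% of all genes (5.72% above and 7.27% below). Of the 6 fold changes, 4 were between 0.05 and 0.25 and 2 were negative, and the median over all genes tested was -0.01. The intervals of Lhx2, Emx2, Nr2f1 and Otx1 reached at most 0.57 on the log2 scale in either direction, whereas that of Otx2 reached -1.74. None of these results shows that the genotypes are alike.

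**Figure D3:**
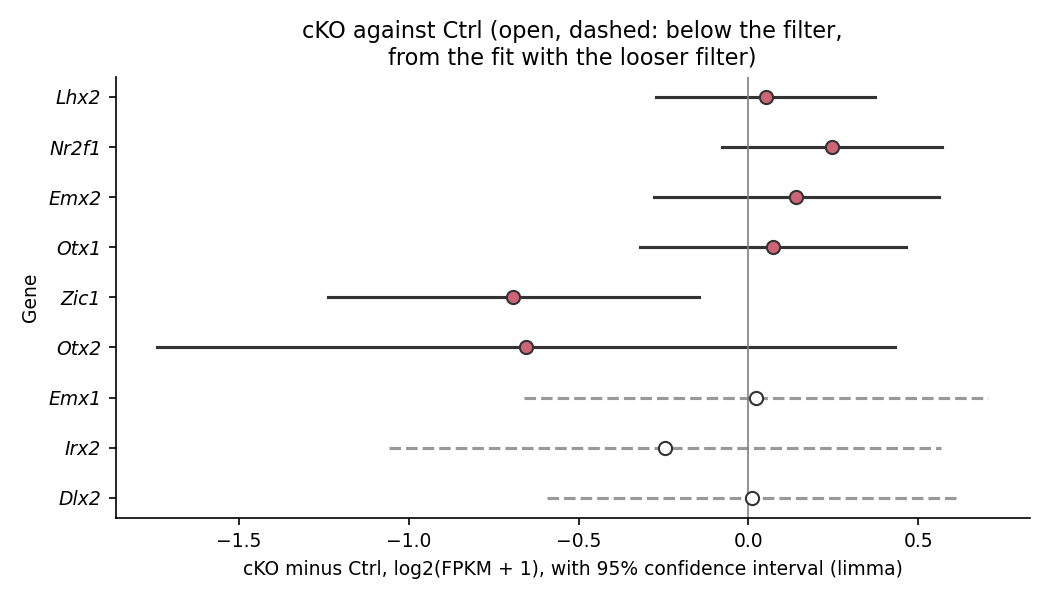
Difference of cKO minus Ctrl on the log2(FPKM + 1) scale for each gene, with its 95% confidence interval from limma. Filled points passed the filter of a mean FPKM of 1; open points with dashed lines, Emx1, Irx2 and Dlx2, come from the fit with the filter of 0.1. The interval of Zic1, -1.24 to -0.15, is the only one that leaves out 0 before adjustment.

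Lists of regional genes that include these 9 were also examined. The dorsal list holds Lhx2, Emx1, Emx2, Nr2f1 and Otx1, so its counts are partly theirs. Of 26 genes of the dorsal telencephalon and hippocampus, 13 passed the filter and 6 reached 10 FPKM. Zbtb20, which specifies hippocampal pyramidal fields, was the highest, at 57.3 ± 4.80 FPKM (Ctrl) and 61.5 ± 5.52 FPKM (cKO). Between genotypes 11 of the 13 had higher and 2 lower means in cKO, with a median log2 fold change of 0.10, and 0 passed the threshold. Over all genes tested 8639 were higher and 8947 lower, with a median of -0.01. Astrocyte markers also had higher means in cKO, 15 of 16, with a median of 0.20, and 0 passed the threshold; their part in the dorsal values was not tested. Prox1, a factor of dentate granule cells, had an unadjusted p under 0.05, at 12.3 ± 2.28 FPKM (Ctrl) and 7.04 ± 2.45 FPKM (cKO) (limma adjusted p = 0.540). The oligodendrocyte sums were also lower in cKO, at 313 to 753 FPKM against 1096 to 2354 FPKM in Ctrl. Their part in the Prox1 difference was not tested.

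Of 18 ventral telencephalic genes, 3 passed the filter and 0 reached 10 FPKM. Among the 3 were Meis2 and Nkx6-2, of which Nkx6-2 is also a factor of myelinating oligodendrocytes. Meis2 was at 5.76 ± 1.23 FPKM (Ctrl) and 6.76 ± 0.628 FPKM (cKO). Nkx6-2 was at 13.3 ± 5.11 FPKM (Ctrl) and 2.88 ± 0.829 FPKM (cKO) (log2 fold change -1.84, SE 0.33, limma adjusted p = 0.319). The oligodendrocyte list differed in the same direction, with 12 of 12 genes lower in cKO, 0 of them past the threshold, and Cldn11, a tight junction protein of myelin, at 187 ± 77.2 FPKM (Ctrl) and 37.2 ± 23.5 FPKM (cKO). The part of that list in the Nkx6-2 difference was not tested. The other 15 ventral genes, Dlx2 among them, averaged under 1 FPKM.

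Of 30 genes of the diencephalon and midbrain, 8 passed the filter, 2 reached 10 FPKM and 7 were at 0 in every library. Otx2, Zic1 and Irx2 are in this list. Zic2 and Tcf7l2, a mediator of Wnt signalling, were the highest, Tcf7l2 at 13.8 ± 3.20 FPKM (Ctrl) and 15.5 ± 0.680 FPKM (cKO). Irx5, another Iroquois gene, was at 2.71 ± 0.687 FPKM (Ctrl) and 0.971 ± 0.609 FPKM (cKO), without overlap between A numbers (limma adjusted p = 0.593). The median log2 fold change of the 8 was -0.43, and 0 passed the threshold. Of 27 Hox genes, 0 passed the filter, 21 were at 0 in every library and 26 had at most 3 reads in every library. The exception was Hoxd1, with 10 and 26 reads in A1 and 0 in the other A numbers. Hoxb6 and Hoxb2, next in level, were among the 26.

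**Figure D4:**
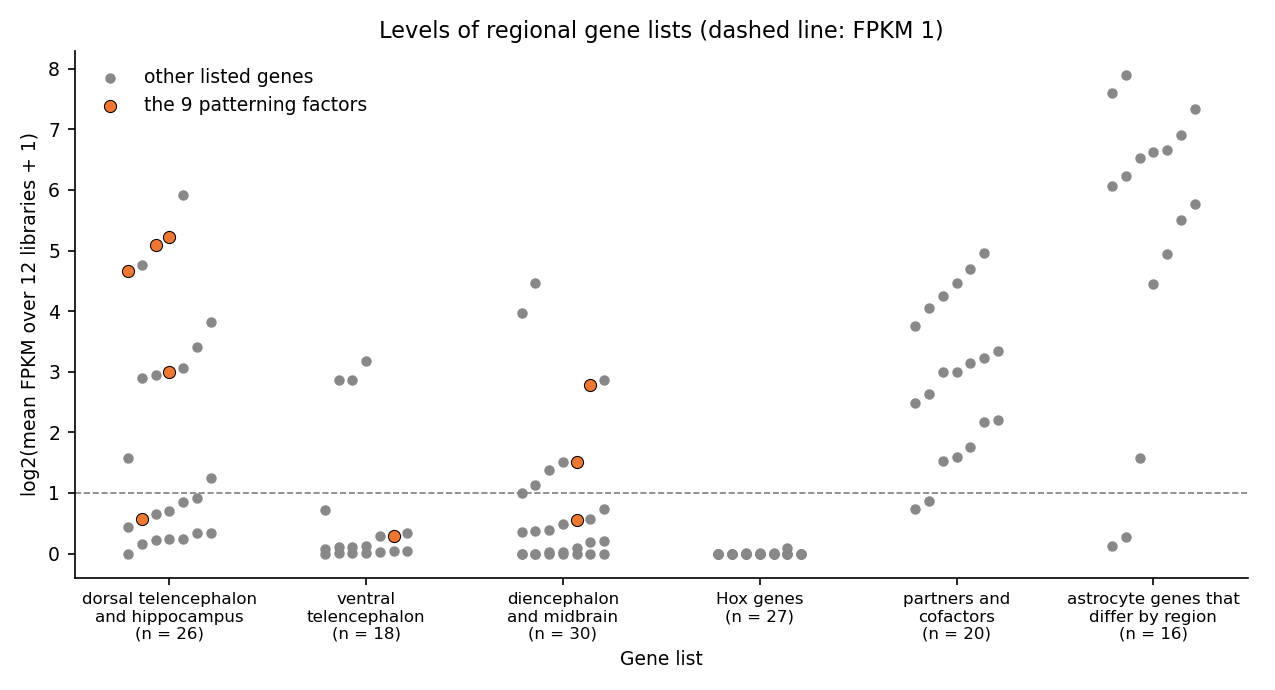
Level of each gene of 6 lists as log2 of its mean FPKM over 12 libraries plus 1; orange points are the 9 patterning factors, grey points the other listed genes, and the dashed line marks an FPKM of 1. The dorsal list reaches highest among the first 4 lists, 15 of the 18 ventral genes lie below the line, and all 27 Hox genes lie near 0.

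The partners through which such factors act were mostly expressed at a mean FPKM of at least 1. Of 20 partners and cofactors, 18 passed the filter, led by Tle4, Tle5 and Lmo4. The corepressor Tle4 was at 27.7 ± 1.56 FPKM (Ctrl) and 32.2 ± 1.77 FPKM (cKO), and Tle5, of the same family, at 25.4 ± 3.28 FPKM (Ctrl) and 24.6 ± 2.95 FPKM (cKO). Lmo4 was at 21.5 ± 4.42 FPKM (Ctrl) and 20.8 ± 3.80 FPKM (cKO); it is a LIM-only protein that competes with LIM homeobox factors such as Lhx2 for their cofactor. Lmo1, of the same family, had an unadjusted p under 0.05 and was at 1.86 ± 1.23 FPKM (Ctrl) and 5.10 ± 0.613 FPKM (cKO) (log2 fold change 1.17, SE 0.33, limma adjusted p = 0.441). Its 3 cKO values lay above its 3 Ctrl values. Between genotypes 8 of the 18 had higher and 10 lower means in cKO, with a median log2 fold change of -0.02.

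Astrocyte genes known to differ between brain regions were examined next. The list sets no direction by region, so its levels do not place the cells in a region. Mfge8, the highest of the list, was at 229 ± 47.9 FPKM (Ctrl) and 247 ± 39.5 FPKM (cKO). Slc6a11, a GABA transporter, was at 185 ± 45.0 FPKM (Ctrl) and 201 ± 15.4 FPKM (cKO), and Kcnj10, an inwardly rectifying potassium channel, at 165 ± 23.3 FPKM (Ctrl) and 158 ± 15.5 FPKM (cKO). Of the 16 genes, 14 passed the filter and 0 the threshold. Il33, an alarmin, was at 92.0 ± 12.5 FPKM (Ctrl) and 56.2 ± 6.89 FPKM (cKO), without overlap (limma adjusted p = 0.332). Of all genes, 7.27% were lower in cKO without overlap. The oligodendrocyte list was also lower in cKO, in 12 of 12 genes, and its part in the Il33 difference was not tested. Slc6a9, a glycine transporter, was at 25.0 ± 5.89 FPKM (Ctrl) and 16.8 ± 2.79 FPKM (cKO), and Thrsp at 23.1 ± 8.45 FPKM (Ctrl) and 36.2 ± 6.09 FPKM (cKO), both with an unadjusted p under 0.05 and limma adjusted p of 0.618 and 0.621.

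Genes most like each tested member over the 6 A numbers were found by Pearson r of log2(FPKM + 1) among 11816 protein-coding genes. With 6 points that share libraries and depth, many genes reach a high r, and the values are a description only. Lhx2 was most like Arid4a (r = 0.983), Slc25a29 (0.966) and Alg5 (0.963). Emx2 was most like Itgb8 (0.984), Rbm4 (0.975) and Bmt2 (0.974), and Nr2f1 most like Slc8b1 (0.991), Tmem100 (0.991) and Rcn3 (0.988). Otx1 was most like Ufd1 (0.985), Cdipt (0.975) and Obi1 (0.966). Otx2 was most like Tnks2 (0.990), Dcdc2a (0.990) and Dync1i2 (0.988), and Zic1 most like Fitm2 (0.997), Yeats4 (0.991) and Atat1 (0.986). None of the 6 tested members was among the 3 genes most like another.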

How the data were processed

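Gene expression in 12 libraries was taken from the FPKM values that the authors deposited, with gene lengths. The submitters' processing notes list FastQC, STAR, featureCounts and DESeq2, and the builds mm10 and GRCm38. Of 52000 genes matched by identifier to GENCODE M21 (GRCm38), 2.87% had the same start and end, and none of the 9 members did, so the build of the coordinates is unsettled. Reads per library were recovered from the steps between low values; 85.7% to 89.5% of values under 200 reads came out whole within 0.02. Values of the S1 and S2 library were averaged within each A number as log2(FPKM + 1), which understates the change of low genes. Genes whose mean reached an FPKM of 1 were tested with limma 3.58.1 (R 4.3.3; eBayes with a variance trend, two-sided, Benjamini-Hochberg adjustment over 17586 genes, threshold 0.05). The fit was tested on simulated data. Single genes were compared with exact permutation tests over 20 arrangements, and levels were summarised in Python 3.11.15.

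The members and gene lists were chosen with earlier results of these data known. Named genes are the 9 members, Tnfrsf1b, the 3 highest of each regional list and those with an unadjusted p under 0.05, the 2 highest markers of each cell type, and the 3 genes most like each member; some of these are not reported here. Zic4, Irx1, Kcnj13, Nr2f2, the antisense genes and the genes of the closing section other than members were named after their values were seen. Alternatives were another pseudocount, 2 filters, another scaling, averaging or variance model, S1 or S2 alone, models of 12 libraries, and each A number left out; the fit without A1 and A2 was added after seeing the data.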

Additional observations from a re-analysis of the deposited data

Results flagged for a closer look

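Emx1 in A9 stood apart in the comparison of S2 with S1. The difference of S2 minus S1 was -0.48 on the log2(FPKM + 1) scale, from 22 reads in S1 and 8 reads in S2, although S2 was the deeper library. In the other 5 A numbers S2 was the higher library. The gap to the nearest A number was 0.866 of the whole range, above Dixon's critical value for 6 values. The same comparison was made for all 9 genes, and Emx1 was the only one past that value; chance flags about 1 in 20 such groups. The cause was not tested.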

How the results depend on the processing

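The count of 0 genes past the threshold held with a pseudocount of 0.1, both other filters, upper quartile scaling, the log2 of the mean FPKM, eBayes without trend, S1 or S2 alone, and without A1 and A2. It ran from 0 to 1 when each A number was left out, the 1 arising without A1. With the 12 libraries and the A number as a random effect it was 112, and 80 with the replicate block added. Both fits enter S1 and S2 of the same A numbers separately, so they add libraries but no A numbers. The cause of the higher counts was not tested. Replicate numbers tell S1 from S2 within an A number, so no pairing of the genotypes follows from them. Of 102 alternative values of the 6 tested members, 0 passed the threshold, 97 kept their direction and 5 reversed: Lhx2 without A1 (-0.020), without A9 (-0.0087) and without A1 and A2 (-0.030), Emx2 without A1 and A2 (-0.13), and Otx1 without A9 (-0.038). Over each A number left out, Lhx2 ran from -0.020 to 0.15 and Otx1 from -0.038 to 0.13. In the same way Emx2 ran from 0.015 to 0.28, Zic1 from -0.92 to -0.54 and Otx2 from -1.07 to -0.29. Over all 17 alternatives Zic1 ran from -0.92 to -0.23 and Otx2 from -1.21 to -0.18. The number of members reaching the level threshold was 6 at 1 FPKM, 9 at 0.1 FPKM and 3 at 10 FPKM, and 6 whichever A number was left out. Depth limits Emx1, Irx2 and Dlx2, with at most 106 reads in any library.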

Other observations

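Low regional genes were found in some A numbers and not in others. In A1 and A2, both Ctrl, Lhx5 had 34 to 82.5 reads per library, Barhl2 had 44 to 82 and Six3 had 58 to 108, where the other A numbers had at most 4 reads of any of them. Reln, which Cajal-Retzius cells secrete, had 4448 to 11930 reads in A1 and A2 and 184 to 850.5 in the other 4 A numbers. Tbr1, a factor of early-born cortical neurons, had 148 to 437 reads per library in A1 and A2 and at most 64 elsewhere.

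Other genes had other distributions. Pax3, a factor of the dorsal neural tube, had 32 and 47 reads in A4 and 79 and 138 reads in A10, both cKO, and 0 in the other 8 libraries. En2, of midbrain and cerebellum, had 30 to 207 reads in A1 and A2, 24 and 28 in A10, and at most 1 in A8, A4 and A9. A10, which held both Pax3 and En2 reads, also had the highest Ttr level.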
